A study of Mus musculus with 6 samples.

Results

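Connexins and pannexins are the proteins of gap junctions and of related membrane channels. The members described here are 9 named genes of the 35127 genes measured: 6 connexin genes (Gja1, Gjb6, Gjb2, Gja4, Gjc1 and Gjc3), the pannexin genes Panx1 and Panx2, and Tjp1, whose product ZO-1 binds connexin 43 at the edge of the gap junction. They were measured by bulk RNA sequencing in 6 libraries of mouse cells labelled as astrocytes. The 3 tumour libraries came from brain allografts of SCLC, small cell lung cancer, a neuroendocrine carcinoma prone to brain metastasis, and the 3 sham libraries from brains that received a sham injection. No strain, age, genotype, tumour line or way of isolating the cells is given in the labels, nor whether a library stands for 1 animal or a pool, so p-values measure only the spread between libraries, which may be technical.

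A connexin hemichannel is a ring of connexin subunits in the plasma membrane, and a gap junction forms where the hemichannels of neighbouring cells dock. In the adult brain astrocytes are coupled into networks mainly by connexin 43 (Gja1) and connexin 30 (Gjb6), through which potassium, glucose metabolites and calcium signals spread. Connexin 26 (Gjb2) is made by some astrocytes and by the meninges, connexin 37 (Gja4) by arterial endothelium, connexin 45 (Gjc1) by mural cells and some neurons, and connexin 29 (Gjc3) by oligodendrocytes. Pannexins form single-membrane channels that release ATP.

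In the tumour libraries the genes of both main astrocyte connexins were lower and that of a vascular connexin was higher. Gjb6 stood at 3.18 ± 0.218 CPM (reads scaled to library size; SD, n = 3) in the tumour group and 17.9 ± 9.17 CPM in the sham group. Gja1 stood at 542 ± 11.8 and 1041 ± 289 CPM, and Gja4 at 20.5 ± 2.37 and 6.71 ± 4.26 CPM. Of the 9 members 7 had enough reads to be tested, 2 fell (Gja1 and Gjb6) and 1 rose (Gja4; quasi-likelihood test of edgeR, threshold of 0.05 on the p adjusted by Benjamini-Hochberg over all tested genes). Among all 14359 tested genes 20.9% were called, 10.5% higher and 10.4% lower. The groups did not overlap in 4 of the 7 tested members, and in 44.1% of all tested genes. The median log2 fold change was -0.13 over the 7 members and -0.02 over all tested genes.

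Sham library 3 differed from sham libraries 1 and 2, and this touches each of these values. The root mean square log2 difference was 0.35 between sham 1 and 2 and 0.323 to 0.353 between tumour libraries, but 0.797 and 0.792 between sham 3 and the other sham libraries. Between a tumour and a sham library it was 0.733 to 0.747. Sham 3 thus lay farther from sham 1 and 2 than any tumour library did. Library totals lay between 22133723 and 25800897 estimated reads. Mitochondrial genes took 4.04% to 4.22% of the reads in the tumour libraries, 6.66% and 6.2% in sham 1 and 2 but 4.2% in sham 3. For Gja1, Gjb6, Gjb2 and Gja4 the value of sham 3 fell between those of sham 1 and 2 and those of the tumour group, so each sham library is given apart. Since the 3 tumour libraries nearly coincide, as do sham 1 and 2, each set was also summed into 1 value. That leaves 1 tumour value against 2 unlike sham values, too few for a test, so only fold changes are given from it. Astrocyte markers were present in all libraries. Of 7 neuron markers Rbfox3 had 0 reads in each library and Stmn2 had 76.7 to 136 CPM. Gad1 rose (log2 fold change 1.70, SE 0.17, adjusted p = 0.0019 by edgeR). Syt1 went the other way, with 0.621, 2.01 and 0.553 CPM in the tumour group and 2.86, 3.99 and 2.99 CPM in the sham group. It did not pass the test (log2 fold change -1.62, SE 0.52, adjusted p = 0.0719 by edgeR). By DESeq2 and by limma-voom 1 of the 4 tested neuron markers was higher and 1 lower. The list summed to 98.3 to 108 CPM over the tumour libraries and 87.5, 85.6 and 145 CPM in sham 1 to 3. Markers of SCLC and neuroendocrine cells summed to 25.8 to 30.4 CPM over the tumour libraries and 42.1, 39.6 and 38.7 CPM in sham 1 to 3, and those of microglia and myeloid cells to 89.5 to 90 CPM and 86.1, 84.7 and 112 CPM. The microglial sum was nearly all Tmem119 (79.6 to 110 CPM), while 6 of the 8 markers, Ptprc, Itgam, Cx3cr1 and Csf1r among them, stayed below 1 CPM in all libraries.

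**Figure D1:**
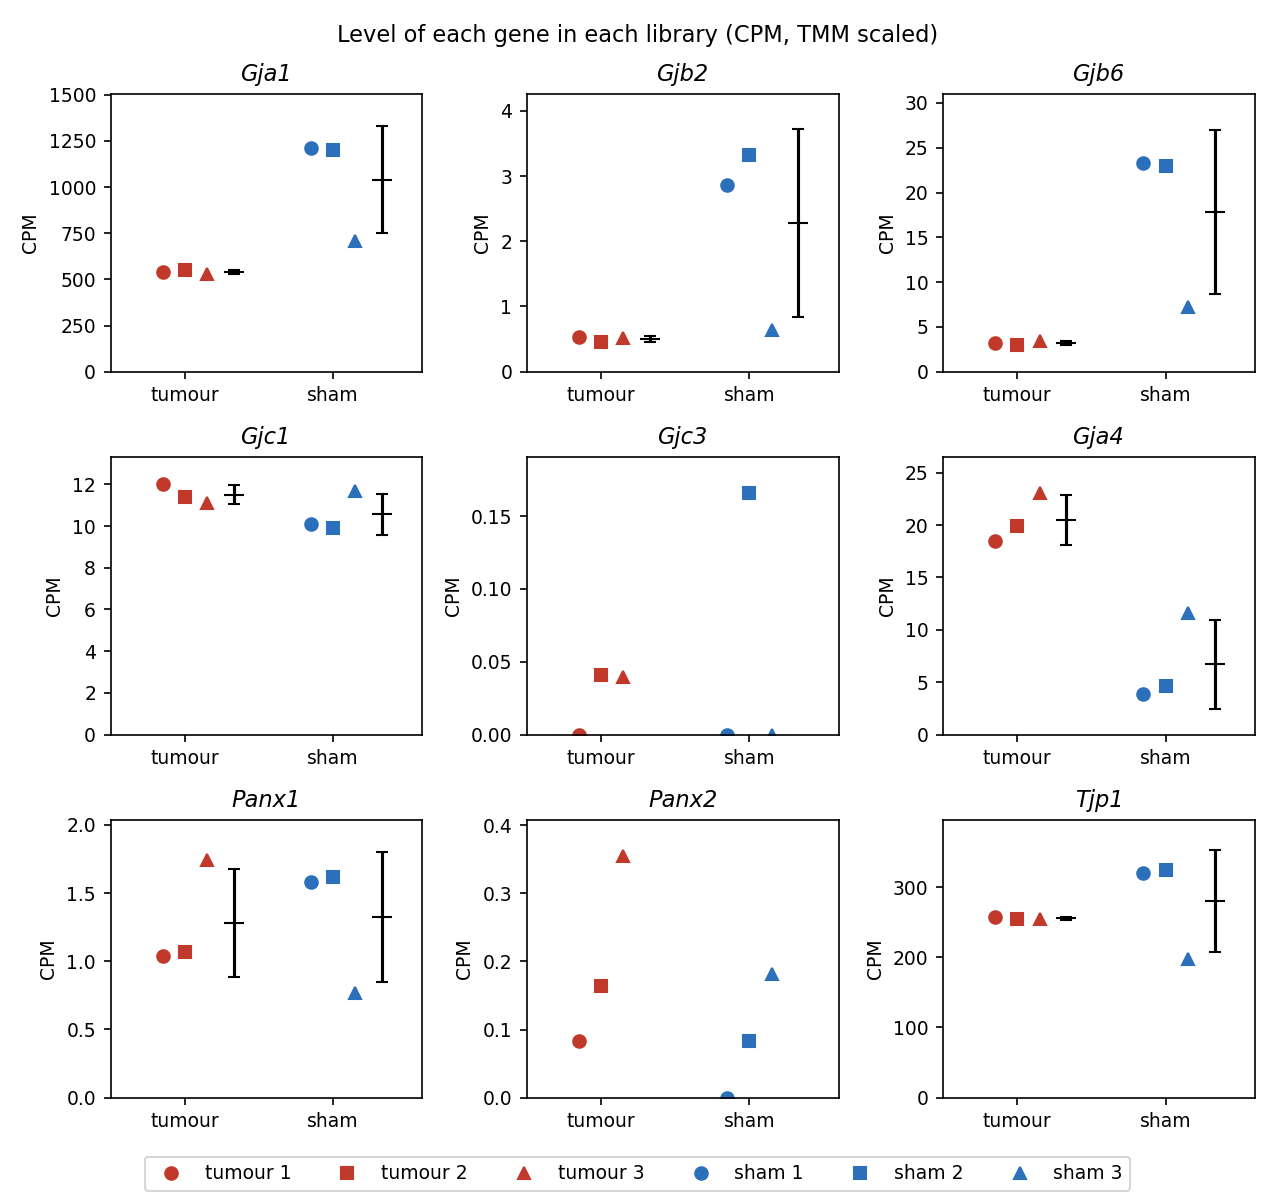
CPM (y axis, from 0) of each member in the 3 tumour (red) and 3 sham libraries (blue); marker shape gives the replicate number, and the black bar beside the points is the mean ± SD of the tested members. For Gja1, Gjb6, Gjb2 and Gja4 the sham 3 triangle lies between the other sham points and the tumour points, and for Gjc1, Panx1, Panx2, Gjc3 and Tjp1 the groups overlap.

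The 250 bases before the annotated start of the 3 members that changed, and of Gjb2, the neighbour of Gjb6, are shown because the results turn on these genes; Gjb2 itself did not pass the test. The sequences are RefSeq's for GRCm38.p6, 5′ to 3′ along the gene's strand. Capitals mark matches on either strand to the hypoxia response core (GCGTG, the other form being ACGTG), to the AP-1 motif (letters TGACTCA) or to the GC box (letters GGGCGG). No window holds the E-box CACGTG, which overlaps the second of these forms.
Gja1 (chr10:56377050-56377299, plus strand): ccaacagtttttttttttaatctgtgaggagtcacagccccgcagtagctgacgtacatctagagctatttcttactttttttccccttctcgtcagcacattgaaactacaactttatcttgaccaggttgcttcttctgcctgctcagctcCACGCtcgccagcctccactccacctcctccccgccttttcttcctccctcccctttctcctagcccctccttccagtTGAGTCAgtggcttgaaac
Gjb6 (chr14:57133612-57133861, minus strand): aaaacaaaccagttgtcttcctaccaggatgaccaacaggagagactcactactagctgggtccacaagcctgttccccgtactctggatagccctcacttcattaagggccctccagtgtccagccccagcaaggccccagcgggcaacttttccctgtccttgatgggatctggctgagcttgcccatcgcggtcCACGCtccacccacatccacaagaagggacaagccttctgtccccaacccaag
Gjb2 (chr14:57104703-57104952, minus strand): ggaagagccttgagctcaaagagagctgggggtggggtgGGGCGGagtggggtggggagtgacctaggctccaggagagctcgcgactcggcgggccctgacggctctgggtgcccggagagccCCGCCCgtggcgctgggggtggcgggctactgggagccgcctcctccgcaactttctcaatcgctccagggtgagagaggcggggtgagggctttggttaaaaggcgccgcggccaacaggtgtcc
Gja4 (chr4:127314040-127314289, minus strand): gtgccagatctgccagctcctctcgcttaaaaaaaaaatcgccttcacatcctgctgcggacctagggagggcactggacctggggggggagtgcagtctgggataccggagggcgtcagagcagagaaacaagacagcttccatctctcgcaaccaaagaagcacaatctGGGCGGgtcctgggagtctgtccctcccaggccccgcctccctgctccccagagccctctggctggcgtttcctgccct
The Gja1 window held 1 AP-1 match, which begins 19 bases before the start and which 4.45% of 32536 distinct promoter windows hold. Gja1 and Gjb6 each held 1 GCGTG match, 97 and 53 bases before the start, and 38.8% of all windows hold either hypoxia core. The Gjb2 window held 2 GC boxes and the Gja4 window 1, against 33% of all windows with at least 1. GC content was 50% for Gja1, 56.8% for Gjb6, 69.2% for Gjb2 and 61.2% for Gja4, with a median of 52.4% over all windows. These matches are a description of letters in these windows; RefSeq windows were found for 7 of the 9 members.

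Gja1 encodes connexin 43, the most abundant connexin of astrocytes, and lies on chromosome 10 from 56377330 to 56402513 (GENCODE M21, GRCm38, the mm10 assembly). It had 542, 553 and 530 CPM in tumour libraries 1 to 3, and 1213, 1202 and 707 CPM in sham libraries 1 to 3. The groups did not overlap, and sham 3 was the sham library nearest to the tumour libraries. The sham mean was 1.92 times the tumour mean, sham 1 and 2 together 2.23 times and sham 3 alone 1.31 times. Gja1 fell, its log2 fold change being -0.94 (SE 0.21; adjusted p = 0.0268 by edgeR). The call ended without any 1 library other than sham 3 (edgeR adjusted p between 0.0798 and 0.112). Without sham 3 the log2 fold change was -1.16. With the near libraries summed it was -0.83, in a fit whose 1 tumour value allows no test. Nearly all Gja1 signal was assigned to the coding transcript Gja1-201, which carried 97.9% to 99.8% of the gene's TPM (a level per transcript length, scaled to the same sum in each library) in every library.

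Gjb6 encodes connexin 30, the second connexin of mature astrocytes. It lies on the minus strand of chromosome 14 from 57123303 to 57133611. It had 3.19, 2.96 and 3.4 CPM in tumour libraries 1 to 3, from 77, 72 and 86 reads. The sham libraries 1 to 3 had 23.3, 23 and 7.26 CPM, from 529, 554 and 160 reads. All 3 sham values exceeded all 3 tumour values, with sham 1 and 2 at 7.28 times and sham 3 at 2.28 times the tumour mean. Gjb6 fell, its log2 fold change being -2.49 (SE 0.45; adjusted p = 0.0129 by edgeR). The call ended without any 1 of the tumour libraries (edgeR adjusted p between 0.0651 and 0.0692) and under limma-voom (adjusted p = 0.0541). It held without any 1 of the sham libraries (edgeR adjusted p of 0.0422 or less). With the near libraries summed the log2 fold change was -2.26, in a fit whose 1 tumour value allows no test. The coding transcript Gjb6-201 had 2.4, 2.13 and 2.46 TPM in the tumour and 16, 16.9 and 5.8 TPM in the sham libraries.

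Gjb2 encodes connexin 26 and lies 18600 bases from Gjb6, on the same strand of chromosome 14 (57098600 to 57104702). It was much rarer, with 13, 11 and 13 reads in the tumour group and 65, 80 and 14 reads in the sham group. On the CPM scale these were 0.538, 0.452 and 0.513 against 2.86, 3.33 and 0.635. Sham 1 and 2 stood well above the rest, while sham 3 was only 1.27 times the tumour mean. Its log2 fold change of -2.17 (SE 0.62) did not pass the test (adjusted p = 0.0521 by edgeR). It passed under DESeq2 (adjusted p = 0.00629) and without the filter on low counts (adjusted p = 0.0457 by edgeR), but not under limma-voom (adjusted p = 0.146). It also passed without sham 3, in a fit that called 57.7% of 14618 tested genes. The other protein-coding genes within 100 kb of the pair, Gja3 (connexin 46) and the gene model Gm4491, had too few reads to be tested, at no more than 0.704 and 0.044 CPM in any library.

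The lower Gja1 and Gjb6 stood beside mixed values of the other astrocyte markers. Of 10 astrocyte markers, which include Gja1 and Gjb6, all were tested. The 2 that fell were these connexin genes and 1 rose, Aldh1l1 (log2 fold change 0.48, SE 0.10, adjusted p = 0.0215 by edgeR). Over all tested genes 10.5% rose and 10.4% fell. The other markers that were higher in sham 1 and 2 did not pass the test: sham 1 and 2 stood at 2.28 times the tumour mean for the water channel gene Aqp4 (log2 fold change -0.81, SE 0.42), 2.16 times for S100b (-0.79, SE 0.37), 1.65 times for Gfap (-0.48, SE 0.24), 1.47 times for Sox9 (-0.33, SE 0.21), 1.23 times for Aldoc and 1.21 times for Slc1a3. In all of these sham 3 was below the tumour mean, so that the groups overlapped. Slc1a2 went the other way, with 316, 325 and 307 CPM in the tumour group and 269, 277 and 118 CPM in the sham group. It did not pass the test either (log2 fold change 0.51, SE 0.31, adjusted p = 0.279 by edgeR). The summed level of the 8 markers other than Gja1 and Gjb6 was 2607 to 2691 CPM over the tumour libraries, 3379 and 3401 CPM in sham 1 and 2 but 1978 CPM in sham 3. In these bulk libraries fewer cells of a type and less RNA per cell cannot be told apart. Markers of leptomeningeal cells and fibroblasts, which also make connexin 26 and 30, had a sum of 4303 to 4364 CPM over the tumour libraries, 4796 and 4827 CPM in sham 1 and 2 but 7462 CPM in sham 3. The collagen genes Col1a2 (2048 to 3825 CPM), Col1a1 (962 to 1717 CPM) and Col3a1 (568 to 1427 CPM) carried most of it, whereas Slc22a6 had 0 to 2 reads. Of 8 tested markers of that list 0 rose (also 0 at an unadjusted p below 0.05 and by DESeq2 and limma-voom) and 4 fell by edgeR: Col3a1, Crabp2, Foxc1 and Slc6a13. The share of all tested genes that fell was 10.4%. Slc6a13, a GABA transporter gene of the meninges, had 0.207, 0.329 and 0.276 CPM in the tumour group and 2.33, 2.7 and 0.817 CPM in the sham group, so that sham 3 lay in between. In Crabp2 (32.2, 34.1 and 32.4 CPM against 78.9, 81.1 and 108 CPM) and Col3a1 (568, 600 and 587 CPM against 1063, 1084 and 1427 CPM) sham 3 was instead the library farthest from the tumour group. The part of these cells in the lower Gjb6 and Gjb2 levels was not tested.

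The ratio of Gjb6 to Gja1 was also lower in the tumour libraries. On the TPM scale Gjb6 stood at 0.962%, 0.887% and 0.938% of Gja1 in tumour libraries 1 to 3, and at 2.86%, 3.2% and 1.45% in sham libraries 1 to 3. The 3 tumour libraries lay close together below every sham library, and sham 3 was nearer to them than to sham 1 or 2. The log2 ratio differed by -1.35 between the groups, a 2.55-fold lower share of Gjb6 (exact two-sided permutation test, p = 0.1, the smallest that 3 against 3 allows, so this design cannot pass 0.05). Against sham 1 and 2 the ratio was 3.26-fold lower and against sham 3 alone 1.56-fold lower. The difference was -1.41 from estimated reads and -1.45 from the most abundant transcript of each gene.

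**Figure D2:**
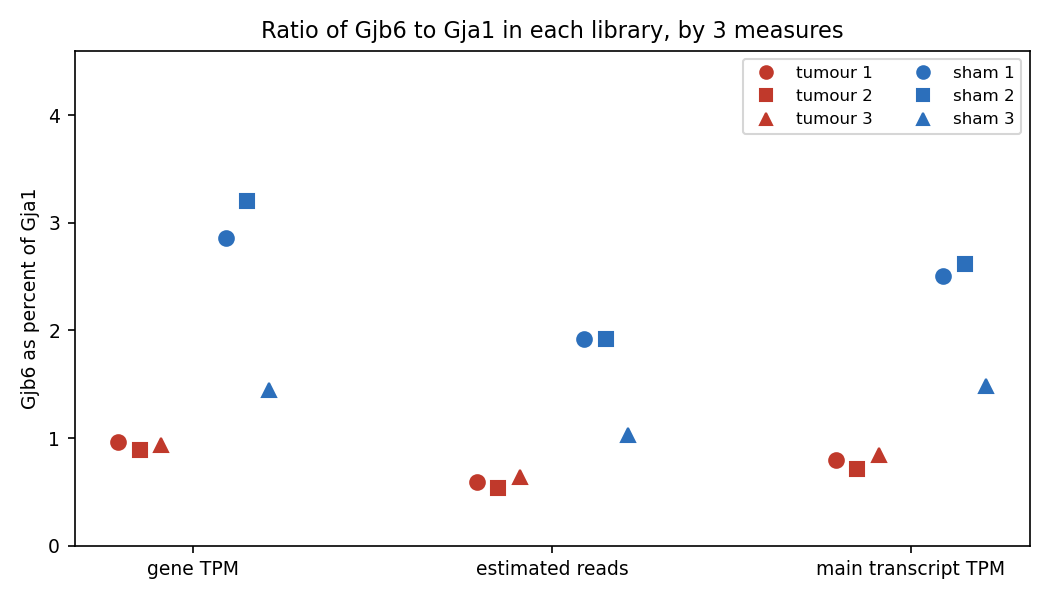
Level of Gjb6 as a percentage of that of Gja1 (y axis, from 0) in each tumour (red) and sham (blue) library, from gene TPM, from estimated reads and from the TPM of Gjb6-201 and Gja1-201. By each measure the 3 tumour points lie below the 3 sham points, and sham 3 is the lowest sham point.

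Gja4, which encodes connexin 37, was the only tested member that rose. It lies on chromosome 4 from 127311421 to 127314039, on the minus strand. It had 18.5, 19.9 and 23.1 CPM in the tumour libraries (447, 485 and 586 reads) and 3.91, 4.61 and 11.6 CPM in the sham group (89, 111 and 256 reads). Every tumour library was above every sham library, by 4.81 times on average over sham 1 and 2 and 1.77 times over sham 3. The log2 fold change was 1.61 (SE 0.41, adjusted p = 0.0364 by edgeR). The call ended without any 1 library other than sham 3 (edgeR adjusted p between 0.0868 and 0.126) and without the filter on low counts (0.062). Without sham 3 the log2 fold change was 2.26. With the near libraries summed it was 1.38, in a fit whose 1 tumour value allows no test.

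Markers of vessel cells had mixed levels beside this rise. Among endothelial markers Cldn5 was at 0 reads in all libraries, where 3 reads would be 0.118 to 0.136 CPM, and Pecam1 and Vwf reached at most 0.499 and 0.452 CPM. Cdh5, the VE-cadherin gene, had 497 to 595 CPM in every library (log2 fold change 0.04, SE 0.10, adjusted p = 0.822 by edgeR). The VEGF receptor gene Flt1 had 34.4, 34.7 and 37.6 CPM in the tumour group and 8.88, 8.94 and 33.9 CPM in the sham group. Like Gja4 it was higher in every tumour library than in any sham library, at 3.99 times sham 1 and 2 but only 1.05 times sham 3. It did not pass the test (log2 fold change 1.05, SE 0.52, adjusted p = 0.205 by edgeR). Of 6 tested endothelial markers 0 rose (also 0 at an unadjusted p below 0.05 and by DESeq2 and limma-voom) and 1 fell by edgeR, Kdr, the gene of another VEGF receptor (-1.29, SE 0.15, adjusted p = 0.0035 by edgeR). Over all tested genes 10.5% rose and 10.4% fell. The summed endothelial level was 624 to 635 CPM over the tumour libraries and 617, 624 and 557 CPM in sham 1 to 3. Most of that sum was Cdh5. Of 5 tested mural cell markers 0 were called (edgeR, DESeq2 and limma-voom; 0 at an unadjusted edgeR p below 0.05). The pericyte markers Rgs5, Kcnj8 and Abcc9 stayed at or below 0.544 CPM, while Acta2 (82.1 to 220 CPM), Pdgfrb (110 to 157 CPM) and Notch3 (36.9 to 55.9 CPM) made up most of the list. The mural sum was 377 to 387 CPM over the tumour libraries, 233 and 231 CPM in sham 1 and 2 but 434 CPM in sham 3. Like Gja4, that sum was higher in the tumour libraries than in sham 1 and 2, but unlike Gja4 it was highest in sham 3. The part of vessel cells in the rise of Gja4 was not tested.

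Gjc1, which encodes connexin 45, had overlapping levels in both groups. It lies on chromosome 11 (102799579 to 102819700). It had 12, 11.4 and 11.1 CPM in the tumour group and 10.1, 9.89 and 11.7 CPM in the sham group. Sham 3 lay within the tumour range, and the log2 fold change was 0.13 (SE 0.11, adjusted p = 0.466 by edgeR). Gjc3, which encodes the oligodendrocyte protein connexin 29 (chromosome 5, 137953461 to 137963098), had 0, 1 and 1 reads in the tumour group and 0, 4 and 0 reads in the sham group and was not tested. The oligodendrocyte markers Mog, Mag, Sox10 and Ugt8a were likewise below 1 CPM in all libraries. Mbp, which encodes myelin basic protein, had 11.9, 13.7 and 12.3 CPM in the tumour group and 3.03, 1.91 and 7.85 CPM in the sham group (log2 fold change 1.57, SE 0.48, adjusted p = 0.0628 by edgeR). Of the 6 tested oligodendrocyte markers 0 were called by edgeR (1 higher at an unadjusted p below 0.05) and 1, in the higher direction, by DESeq2 and by limma-voom. The summed level of all 10 oligodendrocyte markers, 972 to 1002 CPM over the tumour libraries and 1075, 1092 and 703 CPM in sham 1 to 3, came mostly from Cldn11 (581 to 960 CPM) and Cnp (109 to 125 CPM).

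The pannexin genes were near the limit of what this depth can show. Panx1, the widely expressed ATP release channel (chromosome 9, 15002128 to 15045478), had 25, 26 and 44 reads in the tumour group and 36, 39 and 17 reads in the sham group. These are 1.04, 1.07 and 1.74 CPM against 1.58, 1.62 and 0.771 CPM, with the highest value in a tumour and the lowest in a sham library. The log2 fold change was -0.05 (SE 0.40, adjusted p = 0.944 by edgeR), and its sign turned in 5 of 14 alternatives. Much of the signal in the sham libraries was assigned to Panx1-201, a transcript annotated for nonsense-mediated decay, with 97.5%, 82.5% and 56.6% of the gene's TPM, but in the tumour libraries this share ran from 0% to 88%. Panx2, the pannexin best known from neurons (chromosome 15, 89059734 to 89073567), had 2, 4 and 9 reads in the tumour group and 0, 2 and 4 in the sham group and was not tested.

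Tjp1 was the second most abundant member per transcript length. It lies on chromosome 7 from 65296165 to 65527781. It had 258, 255 and 254 CPM in the tumour group and 320, 324 and 197 CPM in the sham group. The tumour values lay above sham 3 and below sham 1 and 2, and the log2 fold change was -0.13 (SE 0.19, adjusted p = 0.661 by edgeR). Without sham 3 it was -0.33 and passed the test, in a fit that called 57.7% of 14618 tested genes. The long coding transcripts Tjp1-202 and Tjp1-201 shared most of the signal, with 31.1% to 35.1% and 32.8% to 37.2% of the gene's TPM in the tumour libraries. In sham 1 to 3 Tjp1-202 had 35.1%, 34.1% and 26%, and Tjp1-201 41.5%, 30% and 34.6%. The shares of these long transcripts overlapped between the groups. A short transcript singled out after its values were seen was the retained-intron Tjp1-204 of 385 bases. It had 5.4, 14.6 and 8.9 estimated reads in the tumour libraries and was listed at 0 in all sham libraries. The coding Tjp1-205 of 551 bases, singled out likewise, had 3.26%, 3.77% and 4.12% of the gene's TPM in the tumour libraries. Its shares in sham 1 to 3 were 7.84%, 6.83% and 7.25%, from 11.0 to 33.1 estimated reads over all libraries.

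Per transcript length, connexin RNA was nearly all Gja1 in every library. The TPM of all 20 connexin genes summed to 344, 346 and 338 in the tumour libraries and to 678, 686 and 445 in sham 1 to 3, a mean 1.76 times higher in the sham libraries. The mean total was lower by 260 TPM in the tumour libraries and that of Gja1 by 264 TPM. Gja1 made up 87.7%, 87.8% and 86.4% of the connexin total in the tumour libraries and 94.7%, 94.2% and 90% in sham 1 to 3. Among the rest, Gja4 stood at 4.81% to 5.92% of the total in the tumour libraries and at 0.484%, 0.585% and 2.27% in sham 1 to 3, whereas Gjb6 stood at 0.779% to 0.844% and at 2.71%, 3.02% and 1.3%. These shares were not tested.

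**Figure D3:**
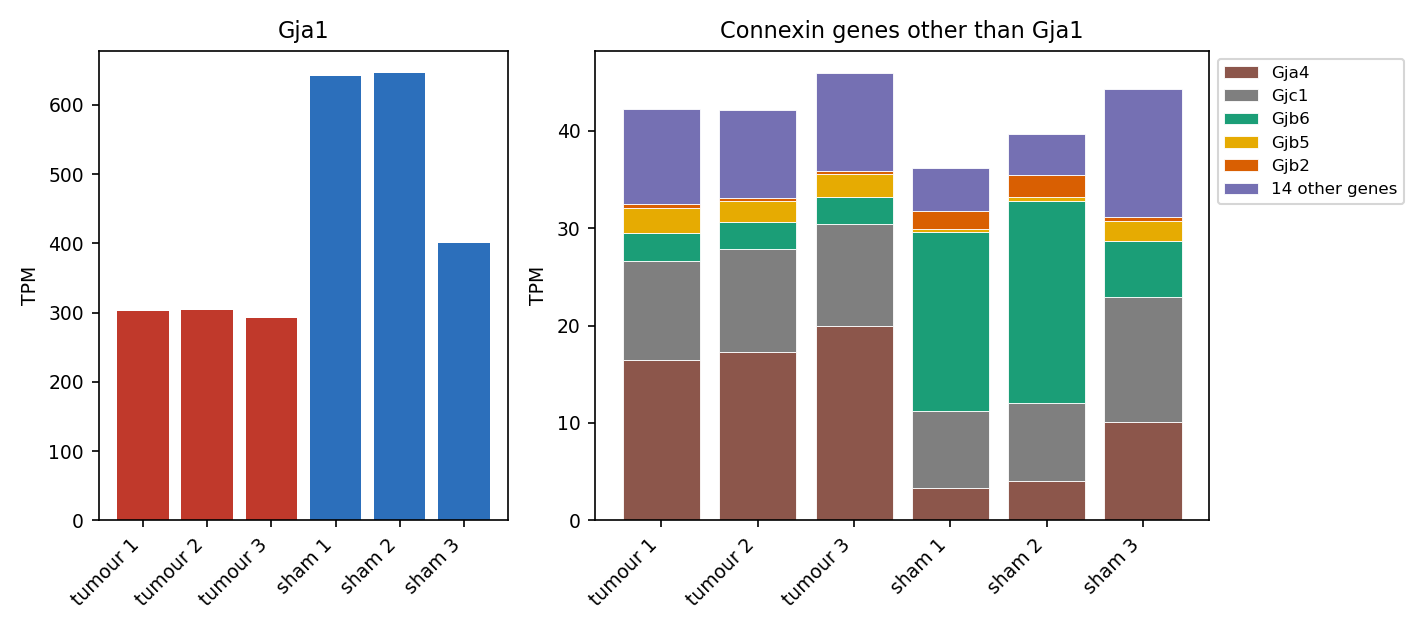
TPM (y axes, from 0) of Gja1 (left; tumour red, sham blue) and of the other connexin genes stacked (right; those not named are summed) in each library. In the tumour libraries Gja4 (16.5 to 20 TPM) is the largest of the named stacked genes, and in sham 1 and 2 Gjb6 is (18.4 and 20.7 TPM).

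In the tumour libraries the mean TPM ran from Gja1 (299 ± 6.16, SD, n = 3) through Tjp1 (75.1 ± 1.97), Gja4 (18 ± 1.85), Gjc1 (10.4 ± 0.257), Gjb6 (2.78 ± 0.109), Panx1 (0.891 ± 0.412) and Gjb2 (0.343 ± 0.0333) to Panx2 and Gjc3. No values of neighbours among the first 7 overlapped there. For Panx1 and Gjb2 this rests on few reads. In tumour library 2, 0.82 of the 1.09 TPM of Panx1 was assigned to the 357-base transcript Panx1-204, from 1.4 estimated reads. The order of Panx1 and Gjb2 was thus not settled in the tumour libraries either. In the sham libraries the order was Gja1 (563 ± 140), Tjp1 (80.7 ± 14.2), Gjb6 (15 ± 8.02), Gjc1 (9.61 ± 2.8), Gja4 (5.81 ± 3.76), Gjb2 (1.51 ± 0.948) and Panx1 (1.08 ± 0.13). The TPM values of Gjb6, Gjc1 and Gja4 overlapped among the sham libraries, as did those of Gjb2 and Panx1, so their order there was not settled. On this scale Gja4 stood above Gjb6 in each tumour library and in sham 3, and below it in sham 1 and 2.

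The other genes of the family were mostly silent. Of 15 other connexin and pannexin genes 4 had enough reads to be tested and 0 were called by edgeR, DESeq2 or limma-voom, with 0 at an unadjusted edgeR p below 0.05 (median log2 fold change 0.40). Gjb5, which encodes connexin 31.1, had 2.69, 2.34 and 2.57 CPM in the tumour group and 0.308, 0.499 and 2.18 CPM in the sham group (log2 fold change 1.35, SE 0.67, adjusted p = 0.203 by edgeR). Its level in sham 3 was thus far from those in sham 1 and 2. Gjb1, Gjd2 and Gje1 had 0 reads in all libraries.

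The partners and regulators of gap junctions gave 2 calls. Among 15 tested genes of the ZO family and of proteins known to bind or traffic connexins 1 rose and 1 fell, with a median log2 fold change of 0.03 (over all tested genes 10.5% rose and 10.4% fell). The gene that fell was Ccn3, which encodes a matricellular protein that binds connexin 43: it had 663, 668 and 639 CPM in the tumour group and 1103, 1163 and 840 CPM in the sham group (-0.66, SE 0.14, adjusted p = 0.0233 by edgeR). The caveolin gene Cav2 rose, from 92.6, 87.8 and 65.4 CPM in the sham group to 111, 120 and 112 CPM (0.48, SE 0.13, adjusted p = 0.0459 by edgeR). By mean TPM the most abundant 2 genes of this list were the ubiquitin ligase gene Nedd4 (-0.11, SE 0.11, adjusted p = 0.544) and the catenin gene Ctnnb1 (-0.07, SE 0.18, adjusted p = 0.815). Of 11 kinases known to phosphorylate connexin 43 or to act upstream of it, all tested, 0 were called by edgeR, DESeq2 or limma-voom (2 lower and 0 higher at an unadjusted edgeR p below 0.05), and the median was -0.07. Mapk3, one of the most abundant of these, had a log2 fold change of -0.07 (SE 0.07).

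Of 12 genes of other large-pore channels 8 were tested, 2 rose and 1 fell, with a median log2 fold change of 0.15 (over all tested genes 10.5% rose and 10.4% fell). Lrrc8a, the obligatory subunit of volume-regulated anion channels, had 63.6, 61.2 and 62.2 CPM in the tumour group and 44.3, 48.8 and 46.2 CPM in the sham group (0.42, SE 0.06, adjusted p = 0.00672 by edgeR). P2rx7, the ATP-gated channel that works together with pannexin 1, had 6.71, 8.59 and 6.04 CPM against 3.03, 3.45 and 4.99 CPM (0.90, SE 0.24, adjusted p = 0.0453 by edgeR). Calhm5, of the calcium homeostasis modulator channels, fell to 37.9, 35.7 and 37 CPM from 49.2, 50.8 and 40.9 CPM (-0.35, SE 0.10, adjusted p = 0.0449 by edgeR). In Lrrc8a the 3 sham libraries lay close together, unlike in Gja4 or Gjb6. The most abundant genes of the list, Lrrc8c and Lrrc8d, had log2 fold changes of 0.10 (SE 0.10) and 0.19 (SE 0.25). Leaving out libraries was not analysed here for genes outside the members.

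Genes were ranked by how near their pattern over the 6 libraries lay to that of Gja1 or Gjb6. The measure was the root mean square difference of log2 CPM, each gene centred on its mean. The ranking covered 11031 tested genes with a mean of at least 5 CPM. Predicted gene models (Gm with a number, or names ending in Rik) were left out. Nearest to Gja1 was the actin regulator gene Pfn2 (0.035), with 184, 186 and 188 CPM in the tumour group and 434, 426 and 252 CPM in the sham group. The next were the mitochondrial gene mt-Cytb (0.054), Smim4 (0.056), the catenin family gene Arvcf (0.058) and Tmem18 (0.063). For Gjb6 the nearest genes were farther away: the synaptic adhesion gene Lrrc4 (0.310), the aminopeptidase gene Enpep (0.336), Aspa (0.338), Tspan13 (0.370) and Tmem158 (0.382). Aspa, whose product splits N-acetylaspartate, had 2.11, 2.34 and 1.74 CPM in the tumour group and 19.3, 17.5 and 3.13 CPM in the sham group, so that sham 3 lay nearer to the tumour libraries than for Gjb6.

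**Figure D4:**
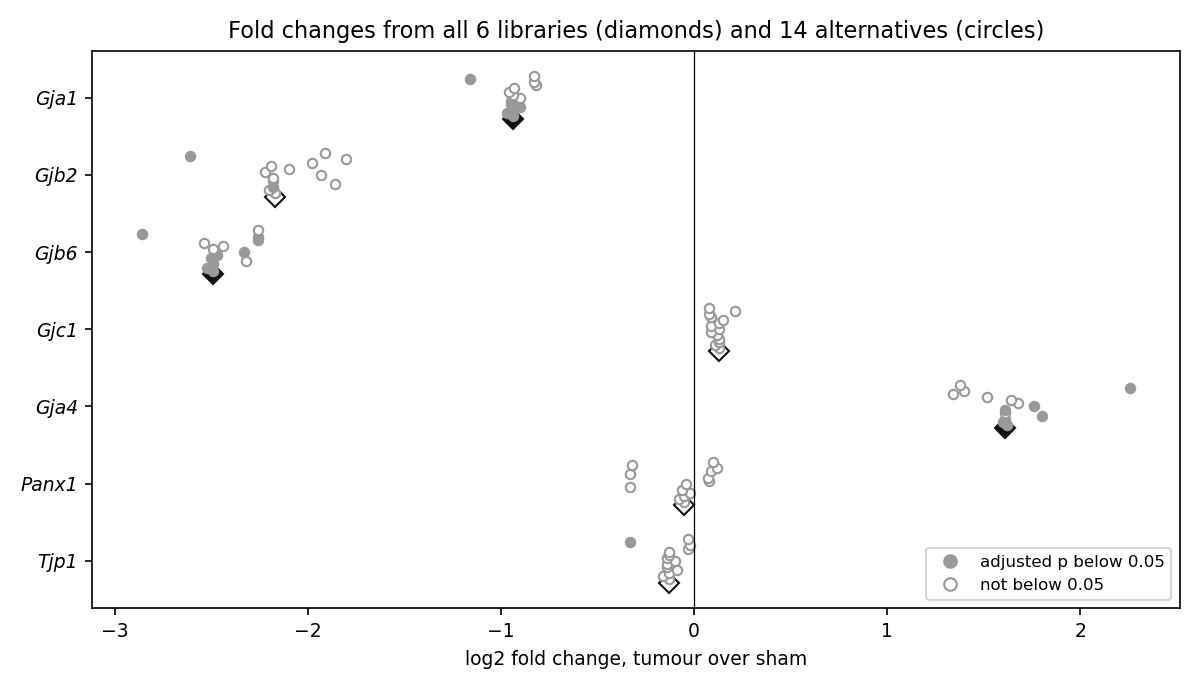
Log2 fold change of tumour over sham (x axis) of the 7 tested members from all 6 libraries (diamonds) and under 14 alternatives each (circles); filled markers have an adjusted p below 0.05. The values of Gja1, Gjb2 and Gjb6 lie below 0 and those of Gja4 and Gjc1 above 0 throughout, while Panx1 falls on both sides; the value farthest from 0 for Gja1, Gjb2, Gjb6, Gjc1 and Gja4 is the one without sham 3.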

How the data were processed

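Per the submitters' processing notes the tools were Salmon 0.8.2 and DESeq2 1.28.1, on mm10; library kit, strandedness and options are not stated. Per the file headers each table lists transcripts with length, effective length, TPM and estimated counts (reads); the authors deposited TPM per transcript, which sum to 1000000 in each library. Of 113116 transcripts 112841 matched GENCODE M21 by identifier without version, and their estimated counts, as deposited, were added up by gene, then rounded. Reads shared by similar transcripts are divided by estimation, so transcript shares of weakly expressed genes are uncertain. The test was edgeR 4.0.16 (R 4.3.3) with TMM, filterByExpr (a count of 10, a total of 15), and a robust quasi-likelihood fit of the group alone to the 6 libraries; p-values were adjusted by Benjamini-Hochberg, threshold 0.05. SEs were derived from the fold change and its F statistic. CPM use TMM library sizes; patterns were compared with a prior count of 2. Alternatives were other size factors, DESeq2 1.42.0, limma-voom (limma 3.58.1), no filter, transcript length offsets, libraries left out, a replicate block and near libraries summed. The scripts were tested on simulated data. With 3 replicates a group precision is limited. The members, the gene lists and the rule for named genes (all members, the called and the 2 most abundant genes of each pathway list, 5 nearest patterns) were chosen with earlier results of these data known; some markers of other cell types are named for their level. Some genes that this rule covers are not reported here.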

Additional observations from a re-analysis of the deposited data

How the results depend on the processing

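The direction of Gja1, Gjb2, Gjb6, Gjc1, Gja4 and Tjp1 held in all 14 alternatives, and that of the ratio of Gjb6 to Gja1 in all 8 of its own (-1.71 to -1.13). The count of called members was 0 without tumour replicate 1, 2 or 3 (edgeR; 4 at an unadjusted p below 0.05), 1 without sham replicate 1 or 2 and 5 without sham 3; over all genes these fits called 897 to 8429. With the near libraries summed the log2 fold changes were -0.83 for Gja1, -2.26 for Gjb6 and 1.38 for Gja4. That fit holds 1 tumour value, so it cannot test them. Leaving out 1 library at a time gave -1.16 to -0.82 for Gja1, -2.86 to -2.26 for Gjb6, -2.61 to -1.80 for Gjb2, 1.34 to 2.26 for Gja4 and -0.33 to -0.02 for Tjp1, in each case farthest from 0 without sham 3, which also brought Gjb2 and Tjp1 past the threshold. Panx1 ranged from -0.33 to 0.12 and had the other sign without tumour 1 (0.08), tumour 2 (0.07), sham 1 (0.09) and sham 2 (0.12) and with near libraries summed (0.10). Gjb2 was called under DESeq2 (-2.18) and without a filter (-2.18). Gjb6 was not called under limma-voom (-2.32), nor Gja4 without a filter (1.61). With the replicate block 1436 genes and 2 members were called, and Gja1 was not (-0.90, adjusted p = 0.0575). The deviations of same-numbered libraries from their group means had a Pearson r of 0.01, -0.02 and 0.00 across genes. This gave no sign of a pairing by number. It cannot exclude one, because the distance of sham 3 from the other sham libraries dominates the sham deviations. The cause of each change was not tested. Gjc3 and Panx2 did not pass the filter on low counts and have no fold change to vary. Gjb2 and Panx1 rest on 11 to 80 reads a library.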
